A study of Mus musculus with 20 samples.

Results

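Pericyte marker genes were followed across 4 cell populations that had been sorted from mammary glands of FVB/N virgin females, 6 to 8 weeks old. The 8 genes, Rgs5, Kcnj8, Abcc9, Cox4i2, Ndufa4l2, Des, Cspg4 and Higd1b, were chosen by symbol from the 46603 genes of the deposited count table. All 8 were found there and all 8 passed the filter on low counts, which kept 17236 genes. Lineage-depleted cells came from the fourth inguinal glands, and each population was taken from 5 individual mice numbered 2 to 6, so that 20 libraries of 1000 cells were sequenced. Mammary repopulating units (MRU) are the basal-rich fraction with medium CD24 and high CD49f. The populations were MRU carrying both CD200 and its receptor CD200R1 (CD200+CD200R1+ MRU), the rest of the MRU (remaining MRU), non-MRU cells with CD200 but no CD200R1 (CD200+ non-MRU), and non-MRU cells with CD200R1 but no CD200 (CD200R1+ non-MRU). The labels define remaining MRU only as not positive for both markers and the count table calls them none, so that it is not settled whether MRU with 1 of the 2 markers are among them. The labels name no genetic change and no treatment in any group. Of the cells in the mouse 4 library of CD200R1+ non-MRU, about 10% were from mouse 3.

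Pericytes are mural cells that lie within the basement membrane of capillaries, wrap the endothelial tube and take part in its stability and tone. Endothelial cells draw them to the vessel with PDGF-B, which binds PDGFRβ on the pericyte, and angiopoietin, Tie2 and Notch signals keep the contact. No single gene defines a pericyte, and smooth muscle, myoepithelial cells, fibroblasts and glia share some of the usual markers, so that markers are read together. The 8 genes fall into 4 roles: a brake on G protein signalling (Rgs5), a potassium channel and its regulatory subunit (Kcnj8 and Abcc9), small mitochondrial proteins (Cox4i2, Ndufa4l2 and Higd1b), and a structural pair, the intermediate filament gene Des and the surface proteoglycan gene Cspg4.

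Of the 8, 7 were lower and none was higher in CD200+CD200R1+ MRU against remaining MRU, by 4.56-fold for Cox4i2 up to 15.4-fold for Rgs5. These 7 were Rgs5, Kcnj8, Abcc9, Cox4i2, Ndufa4l2, Des and Higd1b, and over all 17236 genes tested, 6.64% were lower and 1.62% higher in the same comparison. The median log2 fold change of all 8 members was -2.81, and that of all genes was 0.02. The summed level of the 8 genes ran from 35.6 to 83.2 CPM (each count divided by its library's scaled total) in CD200+CD200R1+ MRU, from 532 to 754 CPM in remaining MRU, from 76.1 to 112 CPM in CD200+ non-MRU and from 39.0 to 149 CPM in CD200R1+ non-MRU. In libraries made from pools of cells, fewer cells of a type and less RNA per cell cannot be told apart.

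The sequences just before the starts of 3 member genes are shown because these genes fell together in CD200+CD200R1+ MRU and stand for 3 of the roles above. Each is the 250 bases before the gene's start in RefSeq, build GRCm38.p6, read 5′ to 3′ on the gene's own strand: chr1:169655251-169655500 on the plus strand for Rgs5, chr6:142571615-142571864 on the minus strand for Kcnj8 and chr1:75360042-75360291 on the plus strand for Des. Capitals mark the E-box CANNTG.
Rgs5: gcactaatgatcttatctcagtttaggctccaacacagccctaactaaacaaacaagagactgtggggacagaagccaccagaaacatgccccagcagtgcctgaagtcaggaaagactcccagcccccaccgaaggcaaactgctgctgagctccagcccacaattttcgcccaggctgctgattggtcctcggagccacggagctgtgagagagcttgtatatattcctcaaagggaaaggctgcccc
Kcnj8: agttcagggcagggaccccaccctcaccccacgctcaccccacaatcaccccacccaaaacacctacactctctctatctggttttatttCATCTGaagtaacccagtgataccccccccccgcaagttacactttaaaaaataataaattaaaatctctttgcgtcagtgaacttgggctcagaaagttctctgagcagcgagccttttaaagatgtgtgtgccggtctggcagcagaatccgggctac
Des: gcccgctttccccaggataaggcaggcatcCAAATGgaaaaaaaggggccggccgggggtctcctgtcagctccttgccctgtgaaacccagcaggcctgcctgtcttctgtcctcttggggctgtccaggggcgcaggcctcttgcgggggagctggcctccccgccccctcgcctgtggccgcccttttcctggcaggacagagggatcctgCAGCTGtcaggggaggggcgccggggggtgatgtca
The E-box, which reads the same on both strands, occurred at 0 places in the Rgs5 window, at 1 in that of Kcnj8 and at 2 in that of Des, and 66.2% of 32841 RefSeq promoter windows of the same length held it. The serum response factor motif known as the CArG box was in 1.47% of the windows, ACGTG in 16.6%, TATAAA in 12.4% and TGGGAA in 21.6%, each searched on both strands. None of these 4 was in the 3 windows shown. Promoter sequences were found for 5 of the 8 members, and those of Abcc9 and Cspg4 are not shown. The Abcc9 window overlaps the annotated gene and held 1 TGGGAA and 1 E-box. The Cspg4 window held 0 of any motif searched.

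Library totals ran from 10853587 to 13862963 counts, so that 3 counts in a library, the limit a count of 0 allows, corresponded to 0.209 to 0.327 CPM. Counting limits cover counting error only, since molecules were not tagged. Genes detected ran from 22188 to 26264 per library, and the mitochondrial genome took 1.96% to 4.92% of counts. The labels call all samples epithelial cells, and the basal keratin Krt14 was plentiful in both MRU populations (1881 ± 498 CPM in CD200+CD200R1+ MRU and 1374 ± 376 CPM in remaining MRU, SD, n = 5 each). Krt14 was near 0 in CD200R1+ non-MRU, at 0.186 to 1.51 CPM, and the summed level of 10 fibroblast genes there was 69548 to 95330 CPM. Values below are CPM scaled by TMM, given for mice 2, 3, 4, 5 and 6 in that order, and adjusted p-values are from edgeR with Benjamini-Hochberg adjustment over the 17236 genes tested.

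**Figure D1:**
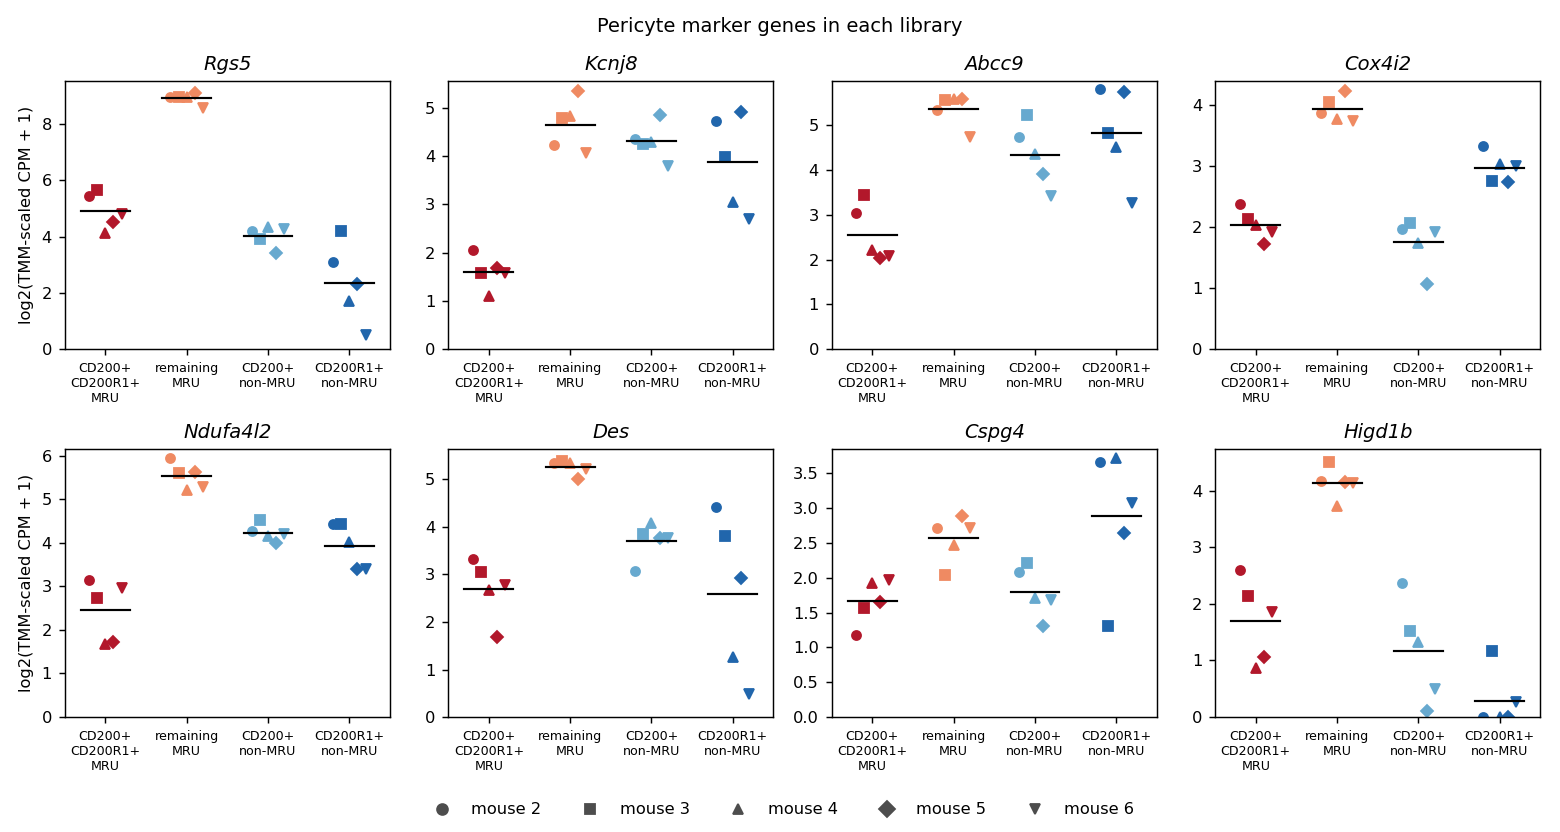
Level of each of the 8 pericyte genes in every library, as log2(TMM-scaled CPM + 1) on the y axis, by population on the x axis, with 1 marker shape per mouse and a line at the mean of 5 libraries. The 5 remaining MRU libraries lie above all 5 CD200+CD200R1+ MRU libraries for each of the 8 genes, and Cspg4 has its highest values in CD200R1+ non-MRU.

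Rgs5 encodes a regulator of G protein signalling that shortens signals from G protein-coupled receptors and is among the most used pericyte markers. The gene (ENSMUSG00000026678) lies on chromosome 1, 169655501 to 169695813 on the plus strand of GRCm38. Rgs5 stood at 42.3, 49.7, 16.6, 21.6 and 27.0 CPM in CD200+CD200R1+ MRU and at 499, 498, 498, 546 and 382 CPM in remaining MRU. It stood at 17.4, 14.02, 19.3, 9.63 and 18.1 CPM in CD200+ non-MRU and at 7.64, 17.3, 2.24, 3.93 and 0.407 CPM in CD200R1+ non-MRU. All 5 remaining MRU libraries were far above every other library, CD200+CD200R1+ MRU overlapped both non-MRU populations, and the CD200R1+ non-MRU libraries spread widest relative to their mean (coefficient of variation 106%), with mouse 3 highest and mouse 6 lowest. Rgs5 was 15.4-fold lower in CD200+CD200R1+ MRU than in remaining MRU (log2 -3.94 ± 0.49 SE, adjusted p = 9.18e-06). It did not pass against CD200+ non-MRU (log2 1.01 ± 0.46, adjusted p = 0.0735) and was 5.03-fold higher than in CD200R1+ non-MRU (adjusted p = 4.76e-04). Remaining MRU exceeded CD200+ non-MRU by 30.9-fold (adjusted p = 1.42e-07) and CD200R1+ non-MRU by 77.4-fold (adjusted p = 6.95e-09). Without the CD200R1+ non-MRU library of mouse 3, the last value was 137-fold and that for CD200+CD200R1+ MRU against CD200R1+ non-MRU 8.93-fold.

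Kcnj8 encodes Kir6.1, the pore of the vascular ATP-sensitive potassium channel, and Abcc9 encodes SUR2, the regulatory subunit that sits around that pore. Both lie on chromosome 6 on the minus strand: Kcnj8 (ENSMUSG00000030247) at 142564837 to 142571614 and Abcc9 (ENSMUSG00000030249) at 142587862 to 142702315. The gap between them was 16247 bases, with 0 protein-coding genes in it. Over the whole gene spans, introns included, Abcc9 shares 11868 bases with the antisense gene 5330439B14Rik, more than its 8373 bases of exon. The overlap of exons was not measured and the strand setting of the counting is not given. Any effect of that gene's reads on the Abcc9 counts is therefore not known.

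Kcnj8 stood at 3.14, 1.97, 1.13, 2.23 and 1.97 CPM in CD200+CD200R1+ MRU and at 17.7, 26.7, 27.7, 39.6 and 15.8 CPM in remaining MRU. It stood at 19.5, 18.1, 18.8, 27.9 and 13.0 CPM in CD200+ non-MRU and at 25.4, 14.7, 7.27, 29.3 and 5.49 CPM in CD200R1+ non-MRU. Every CD200+CD200R1+ MRU library was below every other library, while the other 3 populations overlapped one another. Kcnj8 was 12.2-fold lower in CD200+CD200R1+ MRU than in remaining MRU (log2 -3.61 ± 0.42 SE, adjusted p = 3.97e-06), 9.28-fold lower than in CD200+ non-MRU (adjusted p = 2.3e-06) and 7.84-fold lower than in CD200R1+ non-MRU (adjusted p = 4.16e-06). Remaining MRU did not pass against CD200+ non-MRU (log2 0.39 ± 0.37, adjusted p = 0.414). Against CD200R1+ non-MRU its log2 difference was 0.63 ± 0.37 (adjusted p = 0.178), and 0.79 (adjusted p = 0.0342) with the mouse number as a replicate block. It also passed with voom (adjusted p = 0.0498), with library size alone (adjusted p = 0.025) and without the CD200R1+ non-MRU library of mouse 5 (adjusted p = 0.0487).

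Abcc9 stood at 7.19, 9.85, 3.62, 3.07 and 3.21 CPM in CD200+CD200R1+ MRU and at 39.3, 46.2, 46.6, 46.9 and 25.6 CPM in remaining MRU. It stood at 25.6, 36.1, 19.4, 13.9 and 9.71 CPM in CD200+ non-MRU and at 54.5, 27.3, 21.9, 52.1 and 8.54 CPM in CD200R1+ non-MRU. CD200+CD200R1+ MRU was again lowest, apart from remaining MRU in all libraries and overlapping each non-MRU population only through its mouse 3 library and the mouse 6 library of the other. Abcc9 was 7.57-fold lower in CD200+CD200R1+ MRU than in remaining MRU (log2 -2.92 ± 0.45 SE, adjusted p = 1.28e-04), 3.88-fold lower than in CD200+ non-MRU (adjusted p = 9.94e-04) and 6.08-fold lower than in CD200R1+ non-MRU (adjusted p = 5.61e-05). Between remaining MRU and CD200+ non-MRU the log2 difference was 0.96 ± 0.42 (adjusted p = 0.0662), and 1.08 (adjusted p = 0.00882) with the replicate block. That call turned on the setting: it also passed with DESeq2 (adjusted p = 0.047), voom (adjusted p = 0.0245), no filter (adjusted p = 0.0437) or only the 10 libraries compared (adjusted p = 0.0204). It passed as well without the mouse 3 library of CD200+CD200R1+ MRU (adjusted p = 0.0472), the mouse 6 library of remaining MRU (adjusted p = 0.0423), the mouse 3 library of CD200+ non-MRU (adjusted p = 0.0221) or the mouse 6 library of CD200R1+ non-MRU (adjusted p = 0.0321). Both channel genes were lowest in CD200+CD200R1+ MRU.

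The 3 small mitochondrial proteins each have a widely expressed relative. Cox4i2 encodes a second form of cytochrome c oxidase subunit 4 that is linked to oxygen sensing and found in lung and vessels. Ndufa4l2, a relative of the respiratory subunit gene Ndufa4, is a known target of hypoxia-inducible factor, and Higd1b belongs to the hypoxia-inducible domain family. Cox4i2 (ENSMUSG00000009876) lies on chromosome 2, 152754173 to 152765037, Ndufa4l2 (ENSMUSG00000040280) on chromosome 10, 127514967 to 127517154, and Higd1b (ENSMUSG00000020928) on chromosome 11, 102835849 to 102838040, all on the plus strand. Ndufa4l2 overlaps Shmt2 on the opposite strand by 32 bases.

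Cox4i2 stood at 4.19, 3.38, 3.09, 2.30 and 2.77 CPM in CD200+CD200R1+ MRU and at 13.6, 15.6, 12.6, 17.8 and 12.3 CPM in remaining MRU. It stood at 2.92, 3.21, 2.34, 1.10 and 2.77 CPM in CD200+ non-MRU and at 9.06, 5.75, 7.18, 5.64 and 7.01 CPM in CD200R1+ non-MRU. Remaining MRU was above all other libraries, CD200R1+ non-MRU came next without overlap, and the other 2 populations overlapped. Cox4i2 was 4.56-fold lower in CD200+CD200R1+ MRU than in remaining MRU (log2 -2.19 ± 0.26 SE, adjusted p = 4.15e-06) and 2.20-fold lower than in CD200R1+ non-MRU (adjusted p = 8.85e-04). It did not pass against CD200+ non-MRU (log2 0.35 ± 0.26, adjusted p = 0.277). Remaining MRU was 5.82-fold higher than CD200+ non-MRU (adjusted p = 1.18e-07) and 2.08-fold higher than CD200R1+ non-MRU (adjusted p = 0.00144), and CD200+ non-MRU was 2.80-fold lower than CD200R1+ non-MRU (adjusted p = 5.65e-05).

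Ndufa4l2 stood at 7.86, 5.70, 2.19, 2.30 and 6.85 CPM in CD200+CD200R1+ MRU and at 60.5, 47.4, 36.0, 48.7 and 37.8 CPM in remaining MRU. It stood at 18.2, 22.0, 16.7, 14.9 and 17.3 CPM in CD200+ non-MRU and at 20.6, 20.6, 15.1, 9.57 and 9.56 CPM in CD200R1+ non-MRU. CD200+CD200R1+ MRU was lowest and remaining MRU highest in all libraries, and the non-MRU populations overlapped each other. Ndufa4l2 was 9.23-fold lower in CD200+CD200R1+ MRU than in remaining MRU (log2 -3.21 ± 0.32 SE, adjusted p = 5.48e-07), 3.57-fold lower than in CD200+ non-MRU (adjusted p = 5.57e-05) and 3.02-fold lower than in CD200R1+ non-MRU (adjusted p = 2.26e-04). Remaining MRU was 2.58-fold higher than CD200+ non-MRU (adjusted p = 7.66e-04) and 3.06-fold higher than CD200R1+ non-MRU (adjusted p = 1.48e-04). Between the non-MRU populations the log2 difference was 0.24 ± 0.30 (adjusted p = 0.515).

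Higd1b stood at 5.02, 3.38, 0.83, 1.07 and 2.62 CPM in CD200+CD200R1+ MRU and at 16.9, 21.8, 12.3, 16.9 and 16.6 CPM in remaining MRU. It stood at 4.18, 1.88, 1.51, 0.0735 and 0.408 CPM in CD200+ non-MRU and at 0, 1.26, 0, 0 and 0.203 CPM in CD200R1+ non-MRU. The last population rested on 14 counts in all, 12 of them from mouse 3, and the zeros allow up to 0.327 CPM at its shallowest library. Higd1b was 6.51-fold lower in CD200+CD200R1+ MRU than in remaining MRU (log2 -2.70 ± 0.71 SE, adjusted p = 0.017), with no overlap, but the adjusted p was 0.0526 without the CD200+CD200R1+ MRU library of mouse 4 and 0.0543 without that of mouse 5. It did not pass against CD200+ non-MRU (log2 0.68 ± 0.71, adjusted p = 0.449). Remaining MRU exceeded CD200+ non-MRU by 10.4-fold (adjusted p = 7.45e-04), and by 17.7-fold without the CD200+ non-MRU library of mouse 2.

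Against CD200R1+ non-MRU, Higd1b was 8.74-fold higher in CD200+CD200R1+ MRU (adjusted p = 0.00589) and 56.9-fold higher in remaining MRU (adjusted p = 1.43e-05). Without the CD200R1+ non-MRU library of mouse 3, 2 counts remained in 4 libraries, and the ratio of count rates was 51.6 (95% exact counting interval 14.1 to 430) for CD200+CD200R1+ MRU and 336 (92.7 to 2780) for remaining MRU. Its level there thus hangs on 1 library, and the direction was the same with and without it.

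The widely expressed relatives had means that lay closer together across the populations. Per kb of exon, Cox4i1 averaged 779 CPM in CD200+CD200R1+ MRU, 666 CPM in remaining MRU, 551 CPM in CD200+ non-MRU and 572 CPM in CD200R1+ non-MRU, against 3.99, 18.3, 3.13 and 8.79 CPM for Cox4i2. Ndufa4 averaged 366, 302, 236 and 240 CPM per kb in the same order, against 4.55, 42.1, 16.3 and 13.8 CPM for Ndufa4l2. Higd1a averaged 13.9, 11.9, 8.16 and 9.46 CPM per kb, against 3.05, 19.96, 1.90 and 0.344 CPM for Higd1b. Per kb, the marker's mean thus exceeded its relative's in remaining MRU and in none of the other 3 populations. That order rests on the annotated exon lengths, 847 bases for Higd1b and 3040 for Higd1a. It does not hold in CPM undivided by length. None of Cox4i1 (log2 0.23 ± 0.10 SE, adjusted p = 0.187), Ndufa4 (log2 0.28 ± 0.16, adjusted p = 0.385) and Higd1a (log2 0.22 ± 0.19, adjusted p = 0.594) passed between CD200+CD200R1+ MRU and remaining MRU. Against CD200+ non-MRU all 3 were higher in CD200+CD200R1+ MRU, by 0.50, 0.64 and 0.77 on the log2 scale (adjusted p = 2.58e-04, 0.00307 and 0.00261).

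**Figure D2:**
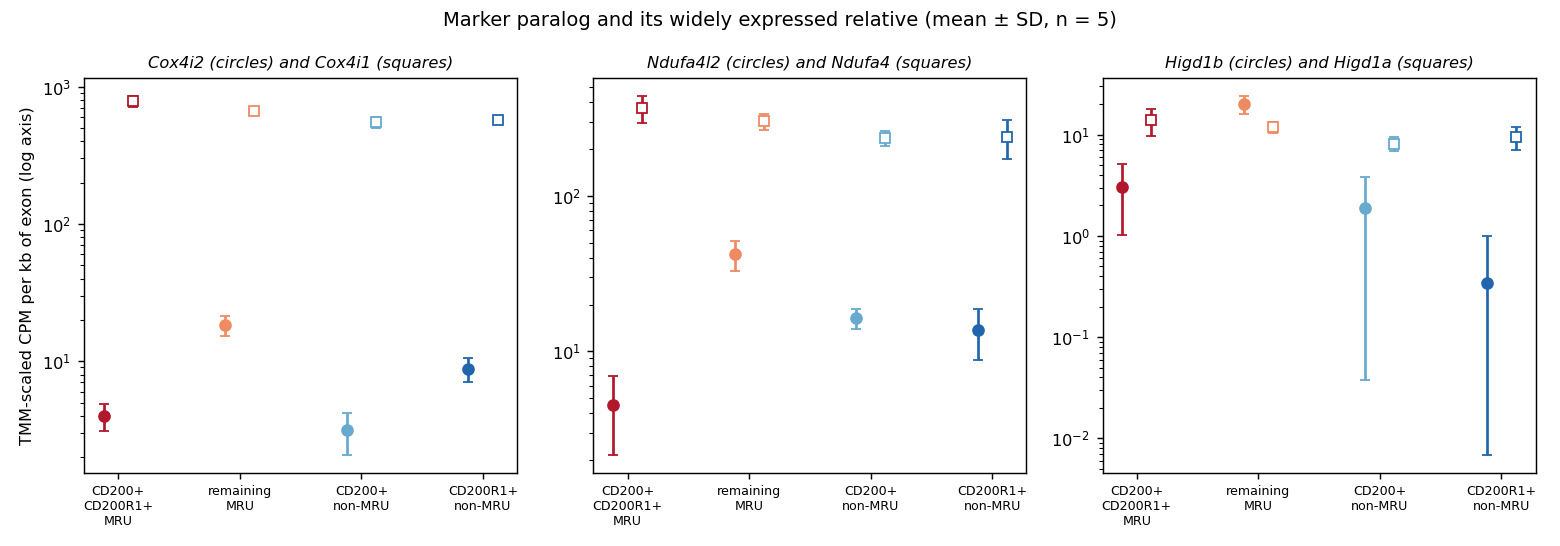
Mean level of Cox4i2, Ndufa4l2 and Higd1b (filled circles) and of their relatives Cox4i1, Ndufa4 and Higd1a (open squares), in TMM-scaled CPM per kb of exon on a log axis, by population, with bars of 1 SD over 5 libraries. The squares run nearly level across the 4 populations while the circles peak in remaining MRU, where Higd1b at 19.96 CPM per kb stands above Higd1a at 11.9 CPM per kb.

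Relatives of the other members were mixed. Kcnj11 and Abcc8, which form the matching channel of pancreatic beta cells, did not follow Kcnj8 and Abcc9: Kcnj11 was at most 0.209 CPM in any library and was not tested, and Abcc8 peaked in CD200+ non-MRU at 6.54 ± 2.15 CPM (SD, n = 5). Higd1c had no count in any of the 20 libraries. Rgs4, which lies near Rgs5 on chromosome 1 (169741477 to 169747642, minus strand), averaged 7.32 ± 4.32 CPM in CD200+CD200R1+ MRU and 71.7 ± 7.07 CPM in remaining MRU, with 25.1 ± 12 CPM in CD200+ non-MRU and 4.37 ± 5.57 CPM in CD200R1+ non-MRU. Rgs4 was 9.77-fold lower in CD200+CD200R1+ MRU than in remaining MRU (adjusted p = 2.74e-04), and so was Rgs16 by 4.93-fold (adjusted p = 4.53e-05). Nes, an intermediate filament gene of immature and vascular cells, was 3.92-fold lower there (adjusted p = 0.0166), while Vim (log2 -0.43 ± 0.15, adjusted p = 0.0905) and Cspg5 (log2 0.03 ± 0.43, adjusted p = 0.987) did not pass.

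Des encodes desmin, the intermediate filament of muscle and of many mural cells, and Cspg4 encodes NG2, a proteoglycan on the surface of mural cells and of glial progenitors. Des (ENSMUSG00000026208) lies on chromosome 1, 75360329 to 75368579, and Cspg4 (ENSMUSG00000032911) on chromosome 9, 56865033 to 56899870, both on the plus strand. Over the whole gene spans, introns included, Des shares 368 bases with the antisense gene Gm15179.

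Des stood at 9.06, 7.25, 5.36, 2.23 and 5.83 CPM in CD200+CD200R1+ MRU and at 39.8, 41.1, 39.6, 31.1 and 36.1 CPM in remaining MRU. It stood at 7.41, 13.5, 15.9, 12.6 and 12.6 CPM in CD200+ non-MRU and at 20.4, 13.1, 1.40, 6.55 and 0.407 CPM in CD200R1+ non-MRU. Remaining MRU was above every other library, CD200+CD200R1+ MRU overlapped both non-MRU populations, and CD200R1+ non-MRU spanned the widest range. Des was 6.31-fold lower in CD200+CD200R1+ MRU than in remaining MRU (log2 -2.66 ± 0.57 SE, adjusted p = 0.00361), and it passed against neither CD200+ non-MRU (log2 -1.06 ± 0.55, adjusted p = 0.118) nor CD200R1+ non-MRU (log2 -0.49 ± 0.56, adjusted p = 0.503). Remaining MRU was 3.02-fold higher than CD200+ non-MRU (adjusted p = 0.021) and 4.51-fold higher than CD200R1+ non-MRU (adjusted p = 0.00307), and the second value was 7.03-fold without the CD200R1+ non-MRU library of mouse 2. Des is also a muscle gene, and among 9 skeletal muscle genes Myh4, a fast myosin heavy chain, reached 78.8 CPM in the CD200R1+ non-MRU library of mouse 6, against at most 1.96 CPM in any library of the other 3 populations. In the CD200R1+ non-MRU library of mouse 6 the 9 genes summed to 81.8 CPM, most of it from Myh4 alone. Des itself was at 0.407 CPM in that library, its lowest value of all 20. The part of muscle cells in the Des values was not tested.

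Cspg4 stood at 1.27, 1.97, 2.79, 2.15 and 2.91 CPM in CD200+CD200R1+ MRU and at 5.57, 3.12, 4.54, 6.43 and 5.60 CPM in remaining MRU. It stood at 3.23, 3.63, 2.26, 1.47 and 2.20 CPM in CD200+ non-MRU and at 11.7, 1.46, 12.2, 5.24 and 7.42 CPM in CD200R1+ non-MRU. Its CD200+CD200R1+ MRU libraries lay just below those of remaining MRU, and CD200R1+ non-MRU held the highest and, in mouse 3, one of the lowest values. Cspg4 did not pass between CD200+CD200R1+ MRU and remaining MRU (log2 -1.18 ± 0.41 SE, adjusted p = 0.0868). It did with DESeq2 (adjusted p = 0.0482), in a fit of only the 10 libraries compared (adjusted p = 0.0118) and without the CD200R1+ non-MRU library of mouse 3 (adjusted p = 0.0226). Against CD200R1+ non-MRU it was 3.42-fold lower in CD200+CD200R1+ MRU (adjusted p = 0.00133) and 2.96-fold lower in CD200+ non-MRU (adjusted p = 0.00313), and remaining MRU had a log2 difference of -0.59 ± 0.40 (adjusted p = 0.253), which was -0.85 (adjusted p = 0.0398) without mouse 3.

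Levels compared per kb of exon put Rgs5 first in both MRU populations, at 6.92 ± 3.09 CPM in CD200+CD200R1+ MRU and 107 ± 13.4 CPM in remaining MRU (SD, n = 5). Ndufa4l2 was second in both, at 4.55 ± 2.38 CPM in CD200+CD200R1+ MRU and 42.1 ± 8.98 CPM in remaining MRU. In the non-MRU populations Ndufa4l2 came first, at 16.3 ± 2.41 CPM in CD200+ non-MRU and 13.8 ± 5.05 CPM in CD200R1+ non-MRU, where Rgs5 averaged 3.45 ± 0.86 CPM and 1.38 ± 1.47 CPM. Rgs5 made up a median of 28.8% of the members' summed CPM per kb in CD200+CD200R1+ MRU (27.3% to 38.4%), 48.8% in remaining MRU (48.5% to 54.7%), 9.08% in CD200+ non-MRU (6.36% to 11.9%) and 2.36% in CD200R1+ non-MRU (0.409% to 8.62%). The libraries of the 4 populations did not overlap in this share except for those of the non-MRU populations.

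The 6 pairwise comparisons gave different sets of members, while all shared the same 20-library fit and each population entered 3 of them. All 8 members had libraries without overlap between CD200+CD200R1+ MRU and remaining MRU, each lower, where 8.53% of all genes tested were lower without overlap. Against CD200+ non-MRU, 3 members (Kcnj8, Abcc9 and Ndufa4l2) were lower and none higher in CD200+CD200R1+ MRU, with 24.6% of all genes lower and 23.9% higher. Against CD200R1+ non-MRU, 5 members (Kcnj8, Abcc9, Cox4i2, Ndufa4l2 and Cspg4) were lower and 2 (Rgs5 and Higd1b) higher in CD200+CD200R1+ MRU, with 24% of all genes lower and 22.8% higher. In edgeR, Rgs5 had an unadjusted p of 0.0385 against CD200+ non-MRU, beside its adjusted p = 0.0735.

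In remaining MRU 5 members (Rgs5, Cox4i2, Ndufa4l2, Des and Higd1b) were higher and none lower than in CD200+ non-MRU, with 24.1% of all genes higher and 20.1% lower. Against CD200R1+ non-MRU, remaining MRU also had 5 members (Rgs5, Cox4i2, Ndufa4l2, Des and Higd1b) higher and none lower, with 22.4% of all genes higher and 21.6% lower. Between the non-MRU populations 2 members (Rgs5 and Higd1b) were higher and 2 (Cox4i2 and Cspg4) lower in CD200+ non-MRU than in CD200R1+ non-MRU, with 23.8% of all genes higher and 28.6% lower, a count near the background. There Rgs5 was 2.50-fold and Higd1b 5.45-fold higher (both adjusted p = 0.0274), but neither passed without the CD200R1+ non-MRU library of mouse 4 or of mouse 5. Rgs5 also failed without the CD200+ non-MRU library of mouse 4 (adjusted p = 0.0521) and with only the 10 libraries compared (adjusted p = 0.0827). Higd1b also failed with voom (adjusted p = 0.0597) and without the CD200+ non-MRU library of mouse 2 (adjusted p = 0.118). It failed as well without the CD200R1+ non-MRU library of mouse 2 (adjusted p = 0.0613) or of mouse 6 (adjusted p = 0.0516). Without the CD200R1+ non-MRU library of mouse 3, Rgs5 was 4.45-fold higher, and the ratio of Higd1b count rates was 31.8 (95% exact counting interval 8.58 to 266).

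**Figure D3:**
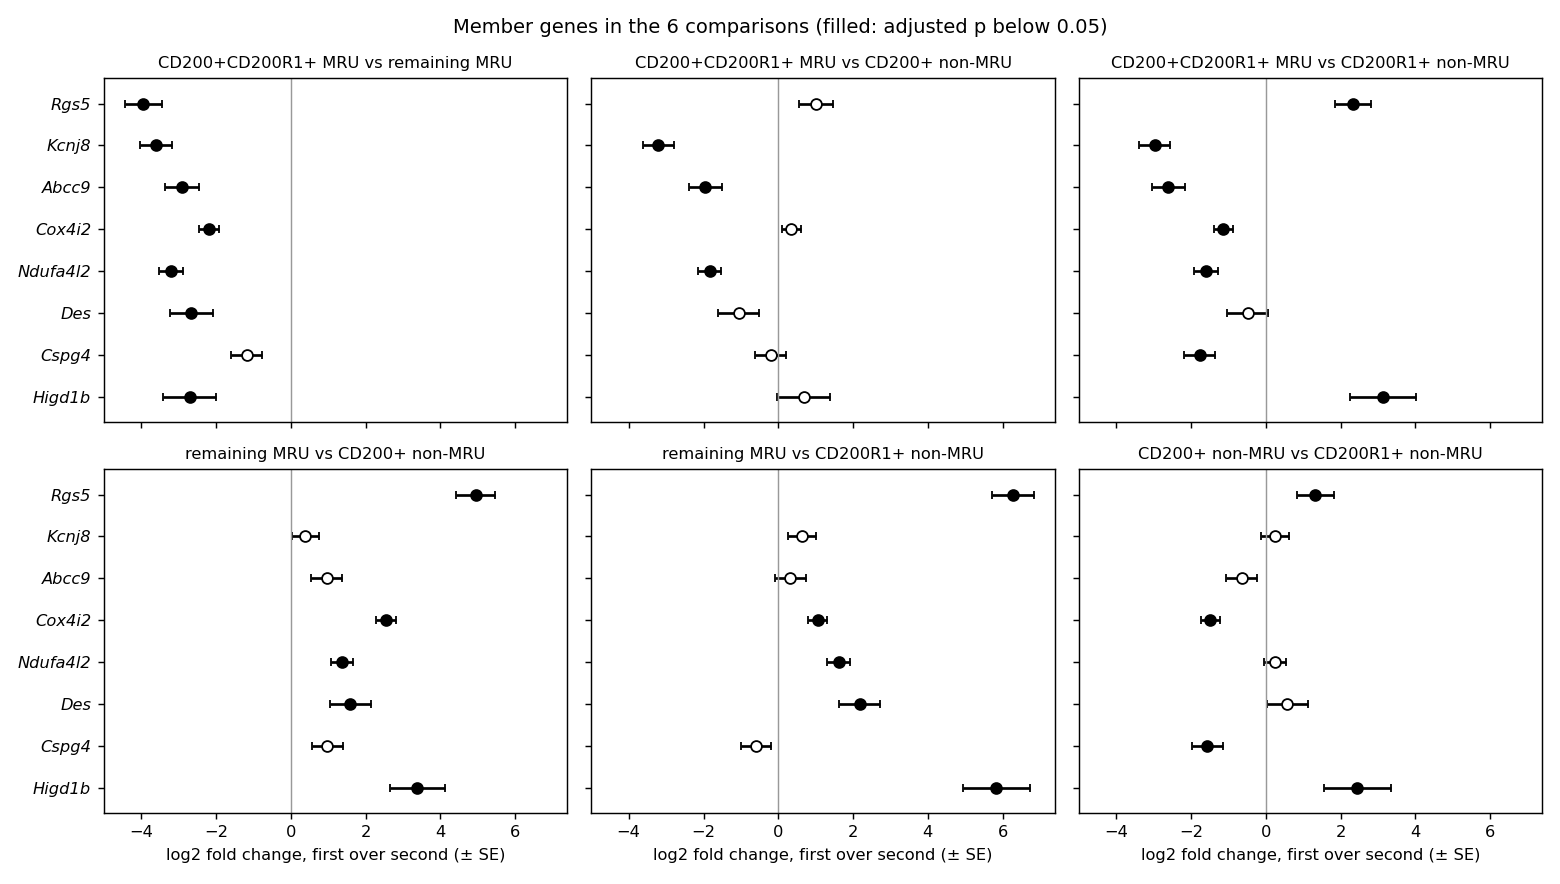
Log2 fold change of each pericyte gene in the 6 comparisons, first population over second, with bars of 1 SE from edgeR and filled points where the adjusted p was below 0.05. The first panel has all 8 points left of 0 and Rgs5 farthest at -3.94, and the panels of remaining MRU against each non-MRU population have Rgs5 and Higd1b farthest to the right.

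Ratios within a library show how far the markers kept step with Rgs5. The log2 ratio of counts (0.5 added to each) was compared between populations with a two-sided exact permutation test over libraries, adjusted over all 42 tests made, a comparison added after the data were seen. The smallest p that 5 libraries against 5 allow is 0.00794, and 0.0124 after adjustment. Exchanging libraries only within each mouse, 5 mice allow no exact permutation p below 0.0625, so that no difference can pass that way. Of the 31 differences that passed over libraries, 29 had the same direction in all 5 mice and reached 0.0625, and the other 2 (Abcc9 and Ndufa4l2 between CD200+ non-MRU and CD200R1+ non-MRU) had it in 4 of 5. All 42 tests share the Rgs5 count of each library, so that they are not separate results. In CD200R1+ non-MRU that count was only 24 in mouse 4 and 4 in mouse 6. The ratio of Kcnj8 to Rgs5 averaged -3.84 ± 0.50 in CD200+CD200R1+ MRU libraries and -4.32 ± 0.40 in those of remaining MRU (SD, n = 5 each), which did not pass (exact permutation p = 0.143, adjusted 0.167). For the other 6 genes the ratio was higher in CD200+CD200R1+ MRU than in remaining MRU, from 0.68 for Ndufa4l2 (exact permutation p = 0.0238, adjusted 0.0333) and 1.004 for Abcc9 to 2.86 for Cspg4 (exact permutation p = 0.00794, adjusted 0.0124).

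Between MRU and non-MRU populations the ratios moved further. Kcnj8 relative to Rgs5 averaged 0.31 ± 0.75 in CD200+ non-MRU libraries and 1.93 ± 1.45 in those of CD200R1+ non-MRU, and remaining MRU was lower than these by 4.62 and 6.25 on the log2 scale (each exact permutation p = 0.00794, adjusted 0.0124). Ratios of Abcc9, Ndufa4l2 and Des were lower in each MRU population than in each non-MRU population at that same p. Those of Cox4i2 (difference -0.52, exact permutation p = 0.111, adjusted 0.133) and Cspg4 (difference -1.12, exact permutation p = 0.0556, adjusted 0.0708) did not pass between CD200+CD200R1+ MRU and CD200+ non-MRU, and passed in the other 3 such comparisons. Higd1b was the exception: its ratio to Rgs5 averaged -3.77 ± 0.55 in CD200+CD200R1+ MRU libraries, -4.85 ± 0.35 in those of remaining MRU, -4.07 ± 1.80 in those of CD200+ non-MRU and -4.73 ± 2.51 in those of CD200R1+ non-MRU. It passed only between the MRU populations (difference 1.09, exact permutation p = 0.00794, adjusted 0.0124), and in the other 5 comparisons the adjusted p ran from 0.395 to 0.929. In CD200R1+ non-MRU these Higd1b ratios rest on 14 counts, so that a difference there was not detectable at this depth.

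**Figure D4:**
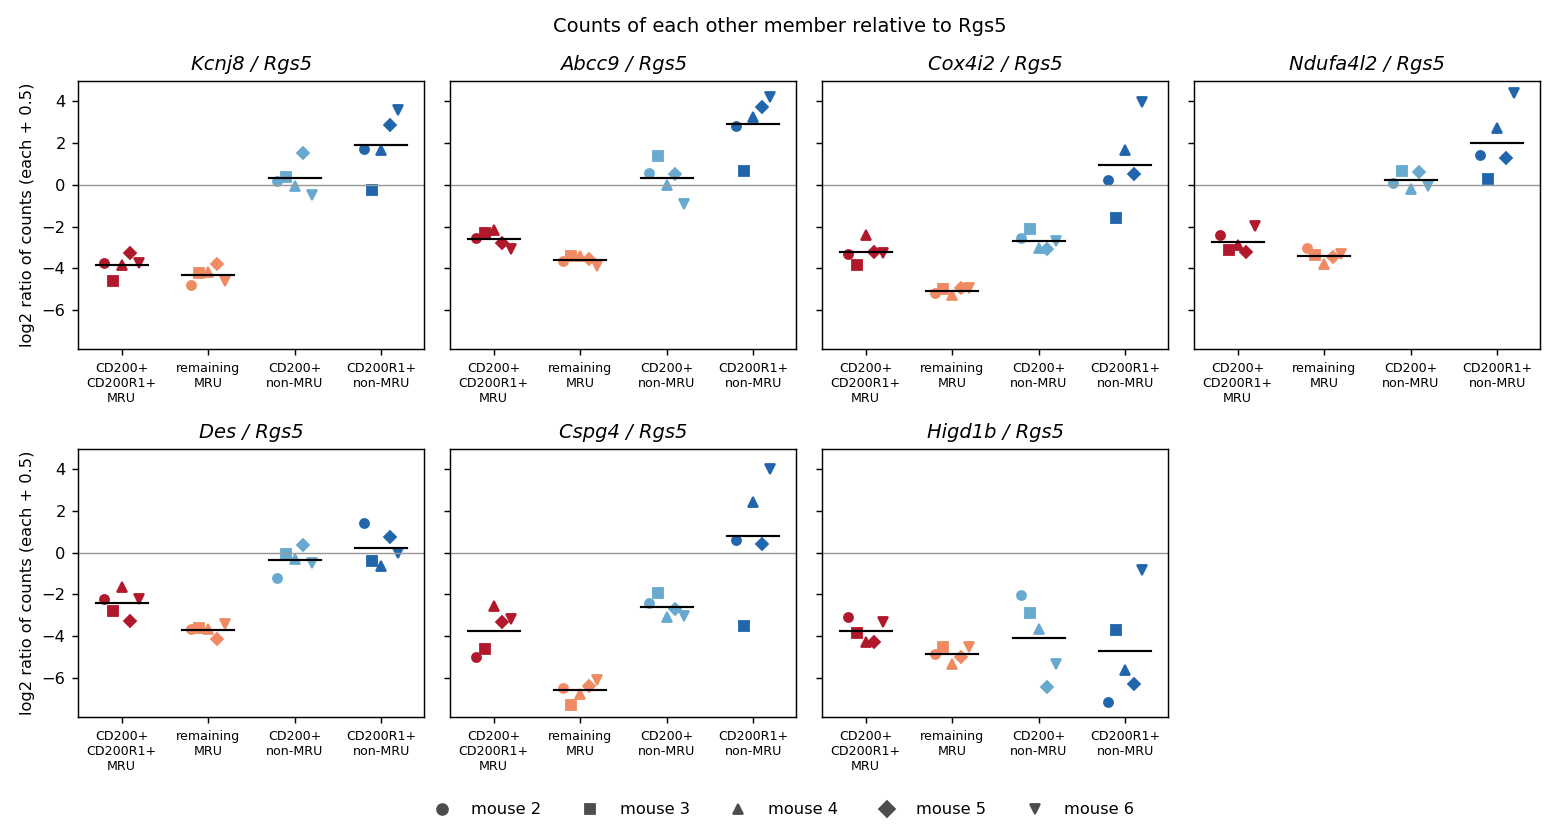
Log2 ratio of the counts of each other pericyte gene to those of Rgs5 in every library (0.5 added to each count) on the y axis, by population on the x axis, with 1 marker shape per mouse and a line at the mean. For Kcnj8, Abcc9, Ndufa4l2 and Des both MRU populations lie below both non-MRU populations, while the Higd1b points of the MRU populations lie within the wider span of the non-MRU points, 3 of which in CD200R1+ non-MRU come from counts of 0.

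A wider list of 26 genes described in pericytes or vascular smooth muscle had 24 in the table, all tested. Like the members, it and the lists that follow were chosen with earlier results of these data known. Their counts are thus no independent test. In CD200+CD200R1+ MRU against remaining MRU, 15 of the 24 were lower and none higher, with a median log2 fold change of -1.37. Over all genes tested, 6.64% were lower and 1.62% higher in that comparison, the same background as for the lists that follow. Art3, an ADP-ribosyltransferase gene, was 7.98-fold lower (adjusted p = 6.95e-08), Agtr1a, the angiotensin receptor gene, 4.05-fold (adjusted p = 3.66e-07), Notch3, the mural Notch receptor gene, 5.37-fold (adjusted p = 6.25e-07) and S1pr3, a sphingosine phosphate receptor gene, 5.60-fold (adjusted p = 1.24e-05). Against the non-MRU populations the list was split: remaining MRU had 10 higher and 7 lower than CD200+ non-MRU, and 8 higher and 8 lower than CD200R1+ non-MRU. Over all genes tested, 24.1% were higher and 20.1% lower in the first of these comparisons, and 22.4% higher and 21.6% lower in the second. CD200+CD200R1+ MRU had 5 higher and 13 lower than CD200+ non-MRU, and 5 higher and 15 lower than CD200R1+ non-MRU. The shares over all genes tested were 23.9% higher and 24.6% lower, and 22.8% higher and 24% lower, in that order.

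Notch3 and Art3 were higher in remaining MRU than in both non-MRU populations, Notch3 by 4.00-fold and 4.61-fold (adjusted p = 9.7e-07 and 1.91e-07). Pdgfrb, the receptor for PDGF-B that fibroblasts carry too, instead averaged 8.76 ± 2.35 CPM in CD200+CD200R1+ MRU, 24.8 ± 3.01 CPM in remaining MRU and 181 ± 88.1 CPM in CD200R1+ non-MRU. It was 7.29-fold lower in remaining MRU than in CD200R1+ non-MRU (adjusted p = 1.3e-08). Cd248, which encodes endosialin of pericytes and fibroblasts, was 59.8-fold lower there (adjusted p = 1.75e-12) and Tbx18 11.6-fold (adjusted p = 3.43e-08). All 10 fibroblast genes were lower in each MRU population than in each non-MRU population, and their part in these values was not tested.

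Of 9 genes for ligands and receptors listed under pericyte recruitment, 6 were lower and none higher in CD200+CD200R1+ MRU against remaining MRU. Tek, which encodes Tie2, was 15.6-fold lower (adjusted p = 3.81e-06), the ligand genes Pdgfd 6.30-fold (adjusted p = 7.87e-06) and Angpt2 8.30-fold (adjusted p = 3.08e-05), and the Notch ligand gene Dll4 14.5-fold (adjusted p = 5.14e-04). Tek and Tie1 of these 9 are also on the list of endothelial genes described next, and Pdgfra on that of fibroblast genes. The 9 are thus not separate from those lists. Pdgfb, the main recruiting ligand, did not pass there, at 21.9 ± 2.24 CPM in CD200+CD200R1+ MRU and 18.6 ± 2.95 CPM in remaining MRU (log2 0.23 ± 0.46, adjusted p = 0.849). It was higher in both MRU populations than in both non-MRU populations, by 11.8-fold in remaining MRU over CD200+ non-MRU (adjusted p = 1.44e-05).

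Endothelial genes moved with the pericyte genes between the MRU populations, but not in every other comparison. All 16 listed endothelial genes were lower in CD200+CD200R1+ MRU than in remaining MRU, with a median log2 fold change of -3.74. Those with the smallest adjusted p were the receptor gene Flt1, 45.8-fold lower (adjusted p = 3.02e-08), Esam, 24.7-fold (adjusted p = 4.77e-08), Plvap, 17.7-fold (adjusted p = 1.27e-07), and Eng, 6.805-fold (adjusted p = 8.92e-07). In remaining MRU 15 of the 16 were higher than in each non-MRU population. Over all genes, 24.1% were higher against CD200+ non-MRU and 22.4% against CD200R1+ non-MRU. CD200+CD200R1+ MRU had 7 higher and 2 lower than CD200+ non-MRU (median log2 1.21, and -0.633 for the 8 members). Of all genes, 23.9% were higher and 24.6% lower there. Against CD200R1+ non-MRU, 7 were higher and 3 lower (median 0.8, and -1.37 for the members), with 22.8% of all genes higher and 24% lower. The summed endothelial level ran from 81.3 to 319 CPM in CD200+CD200R1+ MRU, 2532 to 3659 CPM in remaining MRU, 189 to 453 CPM in CD200+ non-MRU and 397 to 609 CPM in CD200R1+ non-MRU, and no listed endothelial gene was at 0 throughout any population. The part of endothelial cells in the pericyte gene values was not tested.

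The contraction genes that smooth muscle and myoepithelial cells share did not follow the 8 markers. Of 10, 1 was higher and none lower in CD200+CD200R1+ MRU than in remaining MRU: Mylk, which encodes myosin light chain kinase, by 1.69-fold (adjusted p = 0.0381). All 10 were higher in each MRU population than in each non-MRU population. Acta2, smooth muscle actin, averaged 11544 ± 2982 CPM in CD200+CD200R1+ MRU and 8674 ± 1768 CPM in remaining MRU, against 508 ± 186 CPM in CD200+ non-MRU and 75.5 ± 55.6 CPM in CD200R1+ non-MRU.

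Among the other lists, 3 of 15 hypoxia response genes were lower in CD200+CD200R1+ MRU than in remaining MRU and none was higher: Ndrg1 by 2.53-fold (adjusted p = 7.99e-06), Epas1 by 2.81-fold (adjusted p = 8.46e-05) and Bnip3 by 2.13-fold (adjusted p = 2.92e-04). The other 12 did not pass, among them Vegfa (log2 0.08 ± 0.28, adjusted p = 0.924), Slc2a1 (log2 0.25 ± 0.24, adjusted p = 0.65) and Pdk1 (log2 -0.02 ± 0.21, adjusted p = 0.976). The summed hypoxia level was 1162 to 1656 CPM in CD200+CD200R1+ MRU and 1830.5 to 2094 CPM in remaining MRU, without overlap. Of 10 macrophage genes 6 were higher and none lower, among them the integrin gene Itgam by 3.71-fold (adjusted p = 0.00156) and the complement gene C1qa by 2.39-fold (adjusted p = 0.00567). Of 8 adipocyte genes 4 (Car3, Adipoq, Cfd and Retn) were lower and none higher, by 6.60-fold to 8.19-fold. Of 8 lymphocyte genes 1 was higher and none lower. Of 8 basal genes 1 (Trp63) was higher, and none of 9 luminal, 10 fibroblast, 8 Schwann and glial, 4 tested skeletal muscle or 2 tested erythrocyte genes passed. The summed macrophage level was 2878 to 6075 CPM in CD200+CD200R1+ MRU and 1465 to 2324 CPM in remaining MRU, and the part of these cells in the pericyte gene values was not tested.

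**Figure D5:**
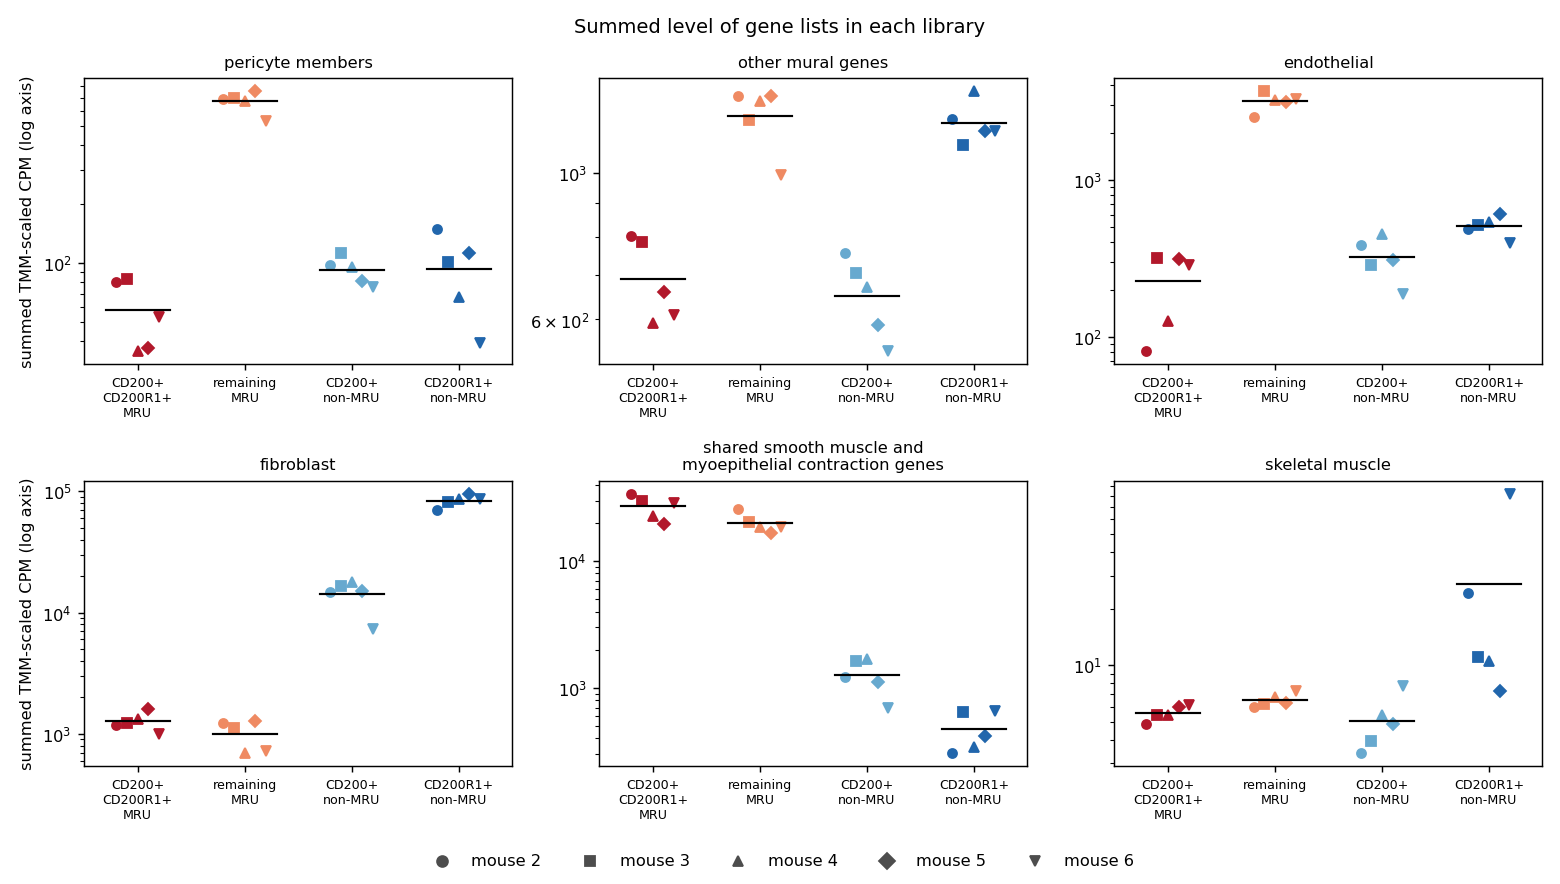
Summed TMM-scaled CPM (log axis) of the 8 pericyte genes, 24 other mural genes, 16 endothelial, 10 fibroblast, 10 contraction and 9 skeletal muscle genes in every library, by population, with 1 marker shape per mouse and a line at the mean. The pericyte and endothelial sums are highest in all 5 remaining MRU libraries, the fibroblast sum in CD200R1+ non-MRU, and the contraction sum in the MRU populations.

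The genes whose profile was most like the mean profile of the 8 members were found by the root mean square difference of mean-centred log2(CPM + 1) values over the 20 libraries, where 0 would be an identical profile. Plcb4, a phospholipase C gene, was closest at 0.33, followed by Notch3 at 0.38 and the transcription factor gene Tbx5 at 0.41. Plcb4 averaged 11.2 CPM in CD200+CD200R1+ MRU, 73.1 CPM in remaining MRU, 21.8 CPM in CD200+ non-MRU and 18.8 CPM in CD200R1+ non-MRU. Acr, Stard13, Sept4, Gprc5a, Hoxa7, Fabp9 and Hoxb9 followed, at 0.45 to 0.49. Of these, Acr, Fabp9 and Hoxb9 were low, averaging 3.58, 3.59 and 4.81 CPM in remaining MRU and at most 0.452 CPM in any other population. At such levels the 1 added to each CPM narrows the differences between populations. The members themselves lay 0.51 (Ndufa4l2) to 1.74 (Rgs5) from their own mean profile, in which each member is included. This distance grows with the size of a gene's differences and is not a measure of their order alone. Rgs5, the farthest, had the same order of population means as Higd1b, while Cspg4 was highest in CD200R1+ non-MRU.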

How the data were processed

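RNA from 20 libraries of 1000 sorted cells was amplified with the SMART-Seq V4 kit, per the labels' protocols. The authors deposited raw counts per gene, made with cutadapt, STAR 2.4.2a and HTSeq on build GRCm38, and normalized columns made with DESeq2, per the submitters' processing notes. The 20 per-sample normalized columns were not used. The strand setting and annotation release of the counting were not given in the sources used here. Library totals were 10853587 to 13862963 counts.

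Counts were filtered with edgeR's filterByExpr, scaled by TMM and fitted with edgeR 4.0.16 (R 4.3.3) by the quasi-likelihood test in 1 model of population over all 20 libraries. All 6 pairwise comparisons were tested at an adjusted p below 0.05 (Benjamini-Hochberg, over 17236 genes). SE is the log2 fold change divided by the square root of F. Gene positions and exon lengths are from GENCODE for GRCm38. The 8 members were named in full, and of each list up to 4 called genes in each direction by smallest adjusted p, plus the paralogs of members and the 10 most alike genes. The members and lists were chosen with earlier results of these data known. Genes discussed beyond that rule (Pdgfrb, Pdgfb, Vegfa, Slc2a1, Pdk1, Acta2, Krt14 and Myh4) were chosen after their values were seen.

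Libraries with the same number came from the same mouse, per the labels. Deviations from the population means correlated with r of 0.0173 to 0.349 between libraries of 1 mouse (median 0.103, 30 pairs) and a median of -0.0347 between mice. The 27 alternatives were DESeq2 1.42.0, limma voom 3.58.1, library size alone, median-of-ratios scaling, no filter, the replicate block, only the 10 libraries compared, and leaving out each of the 20 libraries. On data simulated for CD200+CD200R1+ MRU against remaining MRU over 17236 genes, 52% of genes changed by 2-fold and 72% by 4-fold were recovered. Recovery was 90% at 8-fold and 88% at 16-fold, with 50 genes changed at each fold. All other genes had equal means in every population, unlike the data, so that recovery in the data can differ.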

Additional observations from a re-analysis of the deposited data

Results flagged for a closer look

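Among 36 groups of 5 libraries examined for a library far from the others (the 8 members and their sum in 4 populations), 1 stood apart, and chance marks about 1 in 20 such groups. Higd1b in the CD200R1+ non-MRU library of mouse 3 was at 1.2552 CPM, while the other 4 libraries of that population held 0 to 0.203 CPM. The gap was 0.838 of the whole range, above the critical value of 0.71 for 5 libraries.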

How the results depend on the processing

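Over the 48 fold changes of the 8 members and 27 alternatives, 1295 fits gave a value, of which 1249 kept the direction and the side of the threshold, 12 lost a call, 31 gained one and 3 changed sign, and 35 fold changes kept both throughout. The sign changes concerned members that did not pass: Cspg4 in CD200+CD200R1+ MRU against CD200+ non-MRU (-0.298 to 0.005 over the fits without 1 library), and Des in CD200+CD200R1+ MRU against CD200R1+ non-MRU (0.464 with voom, and -0.793 to 0.157 without 1 library). The count of members higher in CD200+CD200R1+ MRU than in CD200+ non-MRU was 1 (Rgs5) without the filter, with voom and with only the 10 libraries compared, and 0 to 1 without 1 library (1 without the mouse 4 library of CD200+CD200R1+ MRU or the mouse 3 or 6 library of CD200R1+ non-MRU). The count higher in CD200+ non-MRU than in CD200R1+ non-MRU was 0 with only the 10 libraries compared, where Higd1b gave no value, and 0 to 2 without 1 library. The count lower in remaining MRU than in CD200R1+ non-MRU was 0 to 1 without 1 library, and the count lower in CD200+CD200R1+ MRU than in remaining MRU was 6 to 8. Over all genes, 1424 passed between CD200+CD200R1+ MRU and remaining MRU, and 2546 with only those 10 libraries. Calls gained elsewhere were Cspg4 in remaining MRU against CD200+ non-MRU with DESeq2 (adjusted p = 0.0418), with only the 10 libraries compared (0.0194) or without a mouse 3 library (that of remaining MRU 0.0371, that of CD200+ non-MRU 0.0394, that of CD200R1+ non-MRU 0.0161), Des in CD200+CD200R1+ MRU against CD200+ non-MRU with only the 10 libraries compared (0.0185) or without the CD200R1+ non-MRU library of mouse 6 (0.0449), and Des in CD200+ non-MRU against CD200R1+ non-MRU with voom (0.0278), besides those given above. The replicate block changed the calls of Kcnj8 (0.79) and Abcc9 (1.08) given above and no other member's. Library size alone shifted the median of all genes to 0.431, 0.407 and 0.365 on the log2 scale in the 3 comparisons with CD200R1+ non-MRU, and moved higher calls to 73.4%, 74.6% and 69.2% of calls, against 48.7%, 50.9% and 45.4%. The causes were not tested.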
